A study of Mus musculus with 7 samples.

Results

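CTCF is a zinc finger protein that binds a long, directional DNA motif, and cohesin is a ring-shaped complex, of which Rad21 is the subunit that closes the ring. In the loop extrusion model, cohesin travels along DNA and is held where it meets CTCF, so that many CTCF sites in liver and other tissues also carry cohesin and form the anchors of chromatin loops. CTCF sites without cohesin are also known, and they are often called Lone CTCF sites. The sites described here had a CTCF peak of high fold joined by a Rad21 peak of low fold, which need not mean few Rad21 fragments.

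Peaks were selected on measured values, namely the fold of the CTCF peak and the fold of the Rad21 peak under it. Fold is the enrichment at a peak's summit over its local background, as the peak caller gave it. A member was an autosomal CTCF peak of fold 8 or more with 1 bp or more in common with a Rad21 peak, where the strongest such Rad21 peak had a fold under 4.5. Of 26793 autosomal CTCF peaks of fold 8 or more, 25606 overlapped a Rad21 peak, and 1945 of these were members (7.60%, 95% Wilson interval 7.28 to 7.93%). The other 23661 shared peaks had Rad21 folds of 4.5 or more, and 1187 peaks had no Rad21 peak. Members, other shared peaks and these lone CTCF peaks are the groups compared below, and none of the comparisons is between treatments or animals.

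The chromatin came from livers of 8-week-old female Crl:CD1(ICR) mice, an outbred strain, without treatment or genetic change. Nuclei were crosslinked and precipitated in 4 libraries for CTCF and in 3 for Rad21. Each of the 2 peak lists was called on pooled libraries, so that no variation between mice could be estimated and no p-value is given. Intervals cover counting error only. Whole liver nuclei are mostly, but not only, those of hepatocytes, and fewer cells with a bound site cannot be told apart from weaker binding in every cell.

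The CTCF motif was present at many members in a form close to its textbook sequence. The 20 bp sites of the strongest members with a motif, and of the members with the best matches, are shown to let the letters be compared. Capitals mark the 20 bp match, lower case the adjoining 20 bp on either side, and each is read 5′ to 3′ along the motif strand, with coordinates in mm9 (NCBIM37). The first 5 are among the members of highest CTCF fold that carry a motif, where peaks with an annotated UTR in or near the printed window, such as those at Ddx18, Mdm2 and Hnrpdl, were passed over.
Emid2 intron, chr5:137256510-137256569, minus strand: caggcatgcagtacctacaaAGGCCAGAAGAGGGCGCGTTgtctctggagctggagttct
Intergenic, chr6:112083651-112083710, plus strand: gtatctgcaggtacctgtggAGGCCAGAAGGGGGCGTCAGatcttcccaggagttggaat
Itgb3 intron, chr11:104510016-104510075, plus strand: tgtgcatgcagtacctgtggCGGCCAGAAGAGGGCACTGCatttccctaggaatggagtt
Near Mir184, chr9:89688057-89688116, minus strand: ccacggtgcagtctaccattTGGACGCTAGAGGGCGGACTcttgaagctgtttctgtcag
Near 1500001M20Rik, chr6:115016111-115016170, minus strand: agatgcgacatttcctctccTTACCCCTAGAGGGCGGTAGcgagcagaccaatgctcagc

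The next 5 are among the members of highest motif score, and a site near Loxhd1 (25.3 bits) is not shown.
Cblc intron, chr7:20370274-20370333, plus strand: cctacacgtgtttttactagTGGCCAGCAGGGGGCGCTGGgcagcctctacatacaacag
Prkag2 intron, chr5:24512760-24512819, plus strand: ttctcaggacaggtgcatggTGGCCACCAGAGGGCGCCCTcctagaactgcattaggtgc
Cacna1a intron, chr8:87118470-87118529, minus strand: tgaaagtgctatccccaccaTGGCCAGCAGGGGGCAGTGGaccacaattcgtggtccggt
Nnt intron, chr13:120152358-120152417, minus strand: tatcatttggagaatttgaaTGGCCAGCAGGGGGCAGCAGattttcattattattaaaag
Intergenic, chr14:52963429-52963488, minus strand: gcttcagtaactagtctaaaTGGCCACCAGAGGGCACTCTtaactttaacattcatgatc

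At 3 of the strongest members without a called motif, the best match stayed under the threshold, and it is shown in capitals for comparison.
Near B3galtl, chr5:150634117-150634176, plus strand: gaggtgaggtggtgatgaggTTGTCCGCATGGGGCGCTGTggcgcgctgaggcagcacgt
Near Cdh13, chr8:120798760-120798819, minus strand: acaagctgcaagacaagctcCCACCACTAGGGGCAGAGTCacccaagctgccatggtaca
Near Arhgap40, chr2:158382164-158382223, plus strand: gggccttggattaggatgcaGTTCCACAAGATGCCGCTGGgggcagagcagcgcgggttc

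The 10 members of highest CTCF fold had 19 (Emid2) to 57 (Hnrpdl) Rad21 fragments, beside a median of 30 in all members. The highest CTCF fold of a member, 27.0, was in an intron of Emid2, a collagen gene, where 426 CTCF fragments but 19 Rad21 fragments lay over the summits (95% Poisson interval 11.4 to 29.7). In an intron of Itgb3, which encodes an integrin subunit, the CTCF fold was 24.3, with 177 CTCF and 20 Rad21 fragments. In a UTR of Mdm2, the ubiquitin ligase that controls p53, 710 CTCF fragments stood over 41 Rad21 fragments, 14 bp from a transcription start site (TSS). Of the 10 members of highest CTCF fold, Ddx18 (an RNA helicase gene), 2010107E04Rik, Mdm2, Ttc5 and Hnrpdl (an RNA-binding protein gene) had the summit within 119 bp of a TSS. The Hnrpdl summit, in its coding exon 105 bp from the TSS, held 1032 CTCF and 57 Rad21 fragments, at folds of 23.6 and 3.75. These are descriptions of the values by which the peaks were chosen.

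Over all members the CTCF fold had a median of 10.3 (quartiles 8.93 to 12.5), and the Rad21 fold one of 3.86 (3.48 to 4.22). In the other shared peaks the medians were 15.8 and 11.6. The share of shared peaks that were members fell with CTCF fold, from 22.0% at a fold of 8 to 10 through 14.4% at 10 to 12 and 6.30% at 12 to 16 to 1.40% at 16 or more. Members numbered 867, 512, 401 and 165 in these bands. Groups were therefore compared within bands of CTCF fold. On single chromosomes, members made up between 4.99% of the shared peaks (chromosome 13, interval 3.81 to 6.50%) and 9.31% (chromosome 14, 7.69 to 11.2%). The thresholds cut through a continuum. The members nearest to them had a CTCF fold of 8.00005 and a Rad21 fold of 4.49944, and the nearest peaks outside had 7.9997 and 4.50024.

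**Figure D1:**
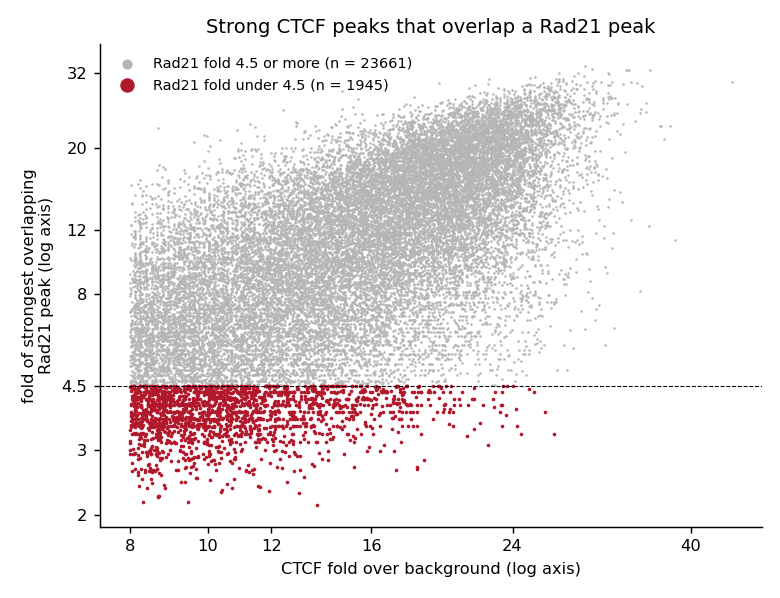
Each point is 1 autosomal CTCF peak of fold 8 or more that overlaps a Rad21 peak, with its CTCF fold on the horizontal and the fold of its strongest Rad21 peak on the vertical axis, both logarithmic. The 1945 members, in red, lie under the dashed line at 4.5 and thin out toward high CTCF fold, with no gap between them and the 23661 other peaks in gray.

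The fold could be taken apart into fragments and background. Fold and p-value together gave a whole number of fragments over the summit for 67006 of 67010 autosomal CTCF peaks and for all 67228 autosomal Rad21 peaks, within 0.01 of a step. Members had 58 to 1050 CTCF fragments (quartiles 90 and 201) and 15 to 195 Rad21 fragments (median 30, quartiles 24 and 43). The medians of the other shared peaks were 222 and 113. The background of the Rad21 list was in turn a whole number of fragments in 10 kb, multiplied by 0.0195, at every autosomal peak above its lowest value of 5.03, within 0.05 of a step. That number was never below the fragments of the summit itself. The background thus counts the pool's own fragments around the peak, and a strong neighbor raises it by construction.

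Counting error at the weak Rad21 peaks was large. The 95% Poisson interval of the Rad21 fragments kept the fold under 4.5 at 284 members (14.6%, Wilson interval 13.1 to 16.2%) and reached 4.5 or more at the others. Of the other shared peaks, 20902 (88.3%) kept a fold of 4.5 or more at the lower limit. The CTCF fold was firmer, with a lower limit of 8 or more at 1193 members (61.3%). The Rad21 q-value comes from the same fragments and background as the fold, so its values are a description. Here 1308 members (67.2%) had a Rad21 −log10 q under 10, against 97 other shared peaks (0.410%).

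The Rad21 background varied widely among members. It was at the lowest value in 606 members (31.2%; 14.5% of all shared peaks), and in 116 members it was 20 or more, which had 52 to 195 Rad21 fragments over the summit. Only 822 members (42.3%) would have a Rad21 fold under 4.5 if every summit were divided by the lowest background. The remaining members had more Rad21 fragments than that, in regions where Rad21 fragments were also dense around the peak. A low fold was therefore reached both with few fragments and with many.

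**Figure D2:**
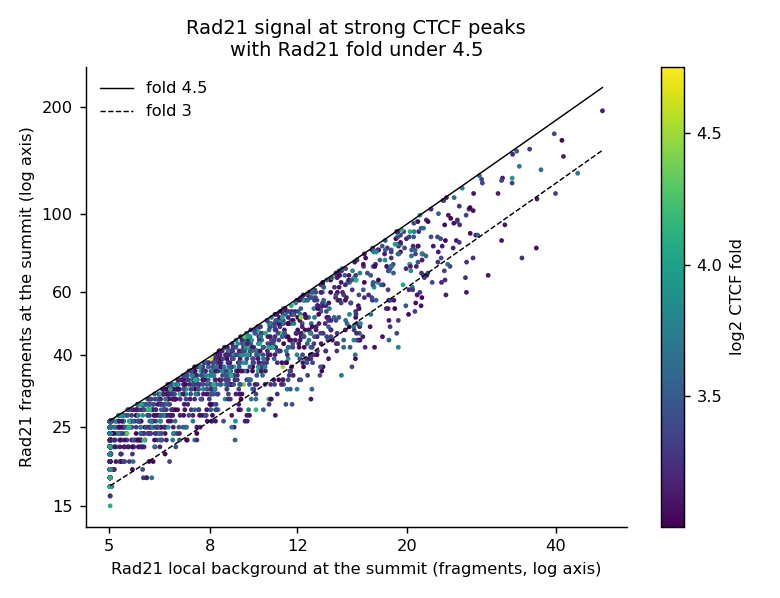
Each point is 1 member, with the Rad21 background at the summit on the horizontal axis and the Rad21 fragments over the summit on the vertical axis, both logarithmic, colored by log2 CTCF fold. Members lie under the line of fold 4.5, from 15 to 26 fragments at the lowest background to 195 fragments at the highest.

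The member with the second highest Rad21 background lay 63 bp from the TSS of Cebpa, the transcription factor gene of hepatocyte identity. There 604 CTCF fragments (fold 13.03) and 130 Rad21 fragments lay over the summits, but 2268 Rad21 fragments were in the surrounding 10 kb, and the Rad21 fold was 2.90 (Poisson interval 2.42 to 3.44). The highest background was in an intron of Hs3st3b1, with 195 Rad21 fragments and a Rad21 fold of 3.87. The other 13 of the 15 members of highest background, which were listed after their values were seen, were at or nearest to Cited2, Scarb1 (the receptor for high-density lipoprotein), 7SK, Trpm8, Vegfa, Vps37b, Kcnq1, Junb, Cdc42bpg, Rnd3, Nfkbia (the inhibitor of NF-kB), C030014I23Rik and Slc9a8. Their summits held 75 (Cdc42bpg) to 168 (Trpm8) Rad21 fragments.

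The position in the genome followed the Rad21 background. Members at the lowest background were a median of 15.7 kb (15658 bp) from the nearest TSS and 34592 bp from the nearest other Rad21 peak of fold 8 or more, and 12.4% of them were at a promoter, meaning a summit within 1 kb of a TSS (Wilson interval 9.99 to 15.2%). Members with a background of 20 or more were 2447 bp from a TSS and 4427 bp from the nearest strong Rad21 peak, and 29.3% were at a promoter (21.8 to 38.2%). Other shared peaks ran the same way, from 6.99% at a promoter and a median of 23753 bp from a TSS at the lowest background to 27.8% and 3930 bp at 20 or more. A Rad21 peak of fold 8 or more lay within 5 kb of 6 of 606 members at the lowest background and of 64 of 116 members at 20 or more (55.2%, 46.1 to 63.9%). In the other shared peaks with a background of 20 or more this share was 23.6% (21.6 to 25.7%). Over all members it was 17.7%, beside 7.49% of all CTCF peaks of fold 8 or more. Since a strong neighbor within 5 kb enters the background, and a high background lowers the fold, this difference is built into the rule and is given as a description.

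**Figure D3:**
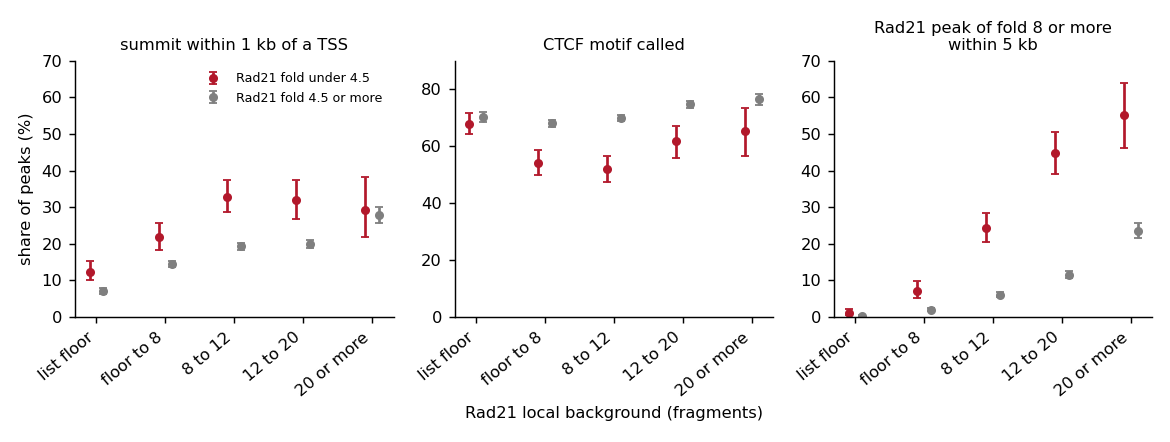
Shares of members (red) and of other shared peaks (gray) by Rad21 background class, with 95% Wilson intervals, for a summit within 1 kb of a TSS, a called CTCF motif, and a Rad21 peak of fold 8 or more within 5 kb. Members at a promoter rise from 12.4% at the lowest background to 32.9% at 8 to 12, and members near a strong Rad21 peak from 0.990% to 55.2%.

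The CTCF motif was then compared, which the rule did not use. A matrix of 20 columns was learned from the strongest CTCF peaks of the odd-numbered autosomes and applied to the even-numbered ones, and the reverse, and a match within 100 bp of the summit was called at a score that 1% of flanking windows reached. The training peaks had CTCF folds of 23.3 or more, so the matrix is not independent of the CTCF fold that the rule used. A motif was called at 1163 members (59.8%, 57.6 to 62.0%), beside 69.9% of all CTCF peaks of fold 8 or more, 70.9% of the other shared peaks and 65.2% of the lone CTCF peaks. Within bands of CTCF fold the order of members and other shared peaks changed. At a fold of 8 to 10, 55.0% of members and 48.1% of other shared peaks had a motif, a difference of 6.94 points (95% Newcombe interval 3.17 to 10.7). At 16 or more the shares were 60.6% and 80.3%, a difference of -19.7 points (-27.3 to -12.5). The median CTCF fold in this band was 17.8 in members and 20.1 in other shared peaks. In the 2 bands between, the interval of the difference included 0. Against the shared peaks of Rad21 fold 4.5 to 6, the motif difference was 11.3 points at 8 to 10 (6.71 to 15.8), 7.004 at 10 to 12 (1.38 to 12.5), 4.93 at 12 to 16 (-0.978 to 10.7) and -3.95 at 16 or more (-12.9 to 4.78). Against lone CTCF peaks it was -7.90 points at 8 to 10 (-12.9 to -2.84) and -4.60 at 10 to 12 (-11.4 to 2.42). It was -7.10 at 12 to 16 (-14.4 to 0.655) and 6.55 at 16 or more (-6.72 to 19.9). By band, the share lay between 48.1% and 80.3% in other shared peaks and between 55.0% and 66.6% in members. The difference from other shared peaks at 8 to 10 was 1.24 points when peaks were cut on q-values (-3.74 to 6.22), 3.399 points with a Rad21 −log10 q of at least 10 (-2.50 to 9.26) and 0.755 points with a match at 5% of flanking windows (-2.59 to 3.93), and these intervals include 0.

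Where a motif was called, its median score was 18.5 bits in members (quartiles 16.8 to 20.4), 18.6 in other shared peaks and 18.5 in lone CTCF peaks. By band of CTCF fold, the medians of members and other shared peaks were 18.5 and 17.5 bits at 8 to 10, 18.3 and 18.01 at 10 to 12, 18.6 and 18.3 at 12 to 16, and 19.05 and 19.02 at 16 or more. The quartiles of both groups overlapped in every band. A CpG, the dinucleotide whose methylation is known to hinder CTCF at some sites, was inside the match at 45.7% of members with a motif (42.8 to 48.5%) and at 46.0% of other shared peaks. Within bands the share was higher in members, by 6.70 points at 8 to 10 (1.70 to 11.8), 8.09 at 10 to 12 (2.26 to 14.0), 6.14 at 12 to 16 (0.0176 to 12.3) and 6.05 at 16 or more, where the interval included 0 (-3.78 to 15.4). Against the shared peaks of Rad21 fold 4.5 to 6 the interval included 0 in each of the 4 bands, with differences of 1.11 points at 8 to 10 (-5.31 to 7.50), 6.34 at 10 to 12 (-0.976 to 13.6), -1.20 at 12 to 16 (-8.74 to 6.37) and -0.447 at 16 or more (-12.0 to 10.8). Methylation was not measured.

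The position of promoters also depended on the band. A promoter held 454 members (23.3%, 21.5 to 25.3%), beside 17.1% of all CTCF peaks of fold 8 or more, 17.0% of the other shared peaks and 8.17% of the lone CTCF peaks. At a CTCF fold of 8 to 10 members were less often at promoters than other shared peaks, at 22.6% and 27.5% (difference -4.93 points, -8.04 to -1.64). This difference was -1.28 points with Rad21 fold under 5 (-4.22 to 1.75) and -2.54 points with a TSS within 2.5 kb (-6.01 to 1.04), and its direction turned, to 3.92 points (-1.33 to 9.59), when a Rad21 −log10 q of at least 10 was required. At 16 or more they were more often there, at 29.1% and 14.3% (difference 14.8 points, 8.41 to 22.2), and at 12 to 16 the difference was 6.87 points (2.98 to 11.3). At 10 to 12 it was 2.91 points (-0.877 to 7.04). From shared peaks of Rad21 fold 4.5 to 6, members differed by -13.0 points at 8 to 10 (-17.1 to -8.88) and by -5.68 at 10 to 12 (-10.6 to -0.617). At 12 to 16 they differed by -1.79 points (-6.78 to 3.45). At 16 or more such peaks were at promoters in 33.0%, from which members differed by -3.88 points (-12.0 to 4.80). The difference from other shared peaks at 16 or more was -4.40 points (-8.97 to 3.12) when the Rad21 fold was taken over the lowest background for every peak, 3.67 points (-0.743 to 9.09) with cuts on q-values, 8.31 points with summits within 100 bp and 50.7 points with a Rad21 −log10 q of at least 10. Over the lowest background the difference at 8 to 10 was -14.8 points. The promoter share of all members was 13.1% over the lowest background and 35.5% with the q requirement. Against lone CTCF peaks, members were more often at promoters in each of the 4 bands, by at least 14.2 points, and none of these intervals included 0. Of all members, 952 were in an intron (48.9%, beside 41.0% of other shared and 50.5% of lone CTCF peaks). Between genes were 737 (37.9%, beside 49.3% and 43.6%) and in a UTR 127 (6.53%, beside 4.72% and 2.53%). A coding exon held 92 (4.73%, beside 3.36% and 2.11%) and an exon of a noncoding gene 37 (1.90%, beside 1.64% and 1.35%).

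Members were then placed in the whole range of Rad21 fold, at 2 ranges of CTCF fold. At a CTCF fold of 8 to 12 the motif share was 64.2% without a Rad21 peak, and 60.9%, 59.4% and 53.8% in members of Rad21 fold under 3.5, 3.5 to 4 and 4 to 4.5. It was 48.6% at a Rad21 fold of 4.5 to 6, 50.6% at 6 to 8, and 64.2% again at 12 or more. The promoter share ran the other way, at 7.74% without Rad21, 20.4% to 26.2% in members, 33.1% at a Rad21 fold of 4.5 to 6 and 6.28% at 12 or more. In this range of CTCF fold and in both shares, members lay between the lone CTCF peaks and the peaks of Rad21 fold 4.5 to 6, which had the lowest motif share and the highest promoter share of these classes. At a CTCF fold of 12 or more this order did not hold for the motif, which was called at 68.6% of lone CTCF peaks, 61.6%, 67.0% and 64.9% of members by the same Rad21 classes, 62.6% at a Rad21 fold of 4.5 to 6 and 80.4% at 12 or more. The promoter shares there were 9.54% in lone CTCF peaks, 22.3% to 24.8% in members, 26.9% at a Rad21 fold of 4.5 to 6 and 10.2% at 12 or more.

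**Figure D4:**
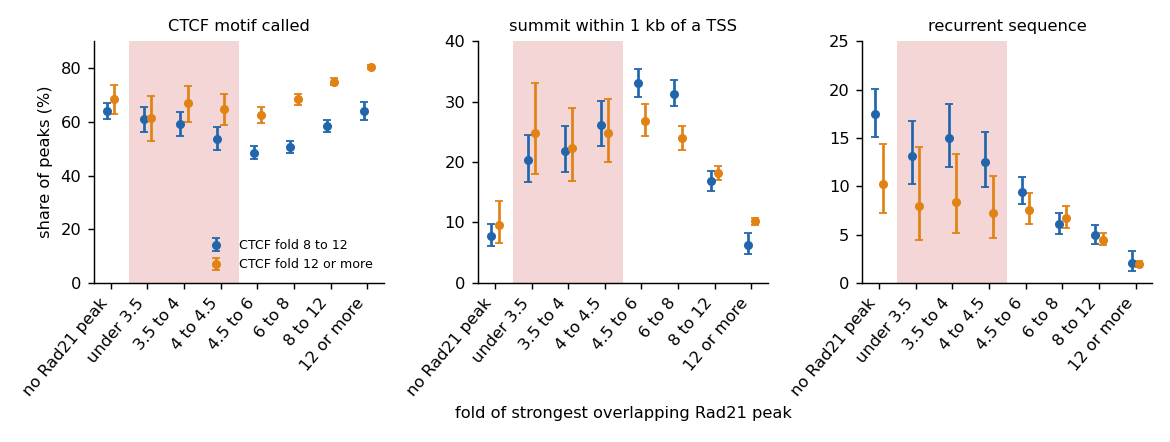
Shares of CTCF peaks with a called motif, at a promoter and with recurrent sequence, by the fold of the strongest Rad21 peak, for CTCF folds of 8 to 12 (blue) and 12 or more (orange), with 95% Wilson intervals. The shaded classes are the members. In the blue series the motif share falls to 48.6% and the promoter share rises to 33.1% just right of the shading, while the recurrent share falls from 17.5% to 2.01% across the range.

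Some members lay in sequence that recurs across the genome. Interspersed repeats of the SINE class have spread copies of the CTCF motif in rodents, so the frequency of the sequence at each summit was counted. For each 100 bp around a summit, the copies of its 16-letter words on the autosomes, X and Y were counted, and a median of 10 copies or more was called recurrent. This was so at 230 members (11.8%, 10.5 to 13.3%), beside 5.17% of all CTCF peaks of fold 8 or more, 4.09% of the other shared peaks and 15.8% of the lone CTCF peaks. The share in members depended on the number of copies required, and was 27.1% at 5 and 6.07% at 20. In each of the 4 bands the share was higher in members than in other shared peaks, by 6.23 points at 8 to 10 (3.99 to 8.74), 9.08 at 10 to 12 (6.10 to 12.5), 3.58 at 12 to 16 (1.08 to 6.83) and 2.52 at 16 or more (0.129 to 6.95). The interval included 0 at 8 to 10 with a Rad21 −log10 q of at least 10 (2.30 points, -0.528 to 6.11), and at 16 or more with that requirement (0.175 points), with Rad21 fold under 4 (1.49 points) and with 20 copies (0.306 points). Against the shared peaks of Rad21 fold 4.5 to 6, the difference was 3.13 points at 8 to 10 (0.268 to 6.03), 5.58 at 10 to 12 (1.87 to 9.47), 0.129 at 12 to 16 (-3.22 to 3.84) and -0.0966 at 16 or more (-3.72 to 4.68). A motif was called at 195 of the 230 recurrent members (84.8%, 79.6 to 88.9%) and at 56.4% of the 1715 other members (54.1 to 58.8%). The same order was present in the other groups, at 85.0% and 70.3% in other shared peaks and at 87.2% and 61.1% in lone CTCF peaks. At a promoter were 16 of the 230 (6.96%). Recurrent members had a median of 108.5 CTCF and 26.5 Rad21 fragments, and the other members 139 and 31. Reads that map to several places had been removed, and the part of this in the counts was not tested.

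Some recurrent members were alike beyond the motif. After alignment on the motif, the 100 bp of 43 of the 195 could be joined in 1 family, in which each had 75% or more of its letters in common with at least 1 other (22.1%). The largest family held a similar share of the recurrent motif sites in other shared peaks (169, 20.5%) and 15.3% in lone CTCF peaks. Of the members of this family, 5 of high CTCF fold without a UTR in or near the window are shown, again with the match in capitals, so that the common letters on both sides of it can be seen.
Intergenic, chr2:11008803-11008862, minus strand: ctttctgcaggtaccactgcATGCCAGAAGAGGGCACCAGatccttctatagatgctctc
Cbx7 intron, chr15:79771534-79771593, plus strand: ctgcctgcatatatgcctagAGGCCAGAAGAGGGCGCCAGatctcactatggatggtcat
Intergenic, chr1:164550765-164550824, minus strand: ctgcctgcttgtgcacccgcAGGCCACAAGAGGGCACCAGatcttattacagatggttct
Tmem50a intron, chr4:134469542-134469601, minus strand: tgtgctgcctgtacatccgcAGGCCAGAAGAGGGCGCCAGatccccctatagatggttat
Ppa1 intron, chr10:61133684-61133743, plus strand: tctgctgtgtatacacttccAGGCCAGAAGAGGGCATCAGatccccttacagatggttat

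The match is followed by the same letters, atc, in all of these. The run CAGAAGAGGGCA, which lies inside the motif and was the most frequent in its place among the 195 recurrent sites, was searched on both strands within 100 bp of every summit. It was found at 208 members (10.7%, 9.40 to 12.1%), beside 5.19% of all CTCF peaks of fold 8 or more, 4.38% of the other shared peaks and 12.2% of the lone CTCF peaks. Windows of the same length 1000 bp before and after the summits held it in 0.679% and 0.713%. The run was read from members, so their count is a description. Of the 208, 92 were not recurrent by the word count. The Itgb3 site printed above, with a CTCF fold of 24.3, holds the run, and its word count of 7 is below the threshold of 10.

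The Rad21 summit lay less regularly on the known side of the motif. Cohesin is known to stop at the side of CTCF toward which the loop points, and its summit is displaced to the 3′ side of the motif as written here. The Rad21 summit was on the 3′ side at 672 of 1163 members with a motif (57.8%, 54.9 to 60.6%), beside 69.1% of all shared peaks with a motif and 69.9% of the other shared peaks (69.2 to 70.6%). The median displacement was 9.5 bp in members (quartiles -26.5 to 36.5) and 16.5 bp in other shared peaks (-5.5 to 29.5). In shared peaks with Rad21 folds of 4.5 to 6 it was 10.5 bp, with 58.1% on the 3′ side (55.6 to 60.6%), and this interval overlaps that of members. By Rad21 fragments, the share in members was 60.8% of 360 at under 25 (55.7 to 65.7%) and 54.7% of 455 at 25 to 40 (50.1 to 59.2%), where other shared peaks had 59.0% (56.0 to 62.0%). At 60 to 100 Rad21 fragments, 65.2% of 112 members (56.0 to 73.4%) and 63.9% of 3625 other shared peaks had the summit on the 3′ side, while at 40 to 60 fragments the shares were 53.7% of 216 members (47.0 to 60.2%) and 63.3% of 1846 other peaks (61.0 to 65.4%). At 100 fragments or more they were 15 of 20 members (53.1 to 88.8%) and 74.3% of 10283 other peaks.

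**Figure D5:**
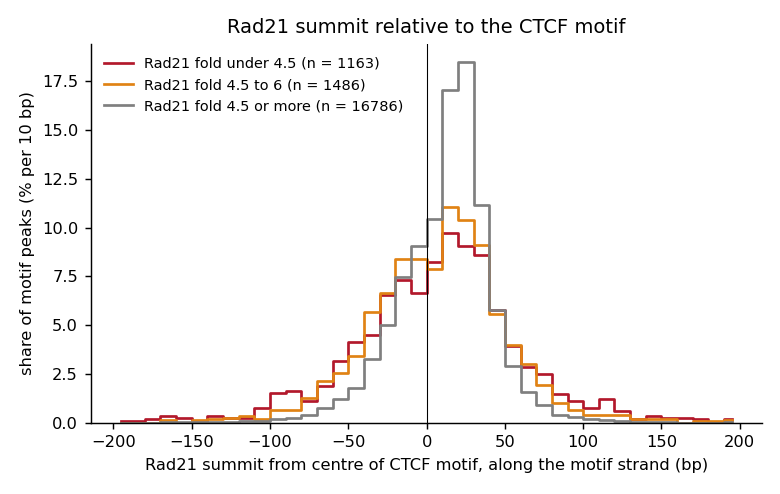
Share of peaks with a called motif in each 10 bp step of the distance from the center of the motif to the Rad21 summit, along the motif strand, for members (red, n = 1163), shared peaks of Rad21 fold 4.5 to 6 (orange, n = 1486) and all other shared peaks (gray, n = 16786). The gray line has 69.9% of its peaks right of 0, with a median of 16.5 bp, and the red and orange lines are broader, with medians of 9.5 and 10.5 bp.

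The CTCF and Rad21 summits of a member were a median of 33 bp apart (quartiles 15 to 65), against 24 bp in other shared peaks (11 to 40). They lay within 50 bp of each other at 67.0% of members (64.9 to 69.1%), beside 83.5% of all shared peaks and 69.5% of those with Rad21 folds of 4.5 to 6 (67.7 to 71.2%). By band, the difference of members from other shared peaks ran from -6.25 points at 8 to 10 (-9.84 to -2.76) to -22.0 at 16 or more (-29.5 to -15.4). The Rad21 peak of a member was a median of 295 bp wide and that of another shared peak 483 bp.

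Genes with a member in the body or within 5 kb upstream were counted over lists of liver and chromatin genes. This held for 1411 of 21418 autosomal protein-coding genes (6.59%). It held for 10 of 34 liver transcription factor and nuclear receptor genes (29.4%), namely Nr5a2, Rxra, Cebpa, Rora, Onecut1, Srebf1, Stat5b, Srebf2, Ppara and Onecut2. These genes were longer, with a median of 29.7 kb against 15.5 kb, and 26 of the 34 also held another shared peak (76.5%, beside 43.4% of all protein-coding genes). In an intron of Ppara, the nuclear receptor of fatty acid oxidation, 153 CTCF fragments (fold 10.7) and 29 Rad21 fragments (fold 2.36) lay over summits 1 bp apart, on a motif. An intron of Stat5b, the mediator of growth hormone signals in liver, had 150 CTCF and 39 Rad21 fragments, at folds of 8.48 and 2.69. At Rxra, the shared partner of nuclear receptors, 1 member upstream of the gene had 109 Rad21 fragments and 1 in an intron, 323 bp from a TSS, had 44.

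Among 38 genes of secreted liver proteins, 5 held a member (13.2%): Serpinc1 (antithrombin), Apoa1 and Apob (lipoprotein proteins), Trf (transferrin) and Itih4. The Apoa1 member, in a coding exon 1305 bp from a TSS, had 299 CTCF and 128 Rad21 fragments, and its Rad21 fold of 4.45 lay just under the limit. Of 47 genes of liver metabolism, Cyp27a1 (a bile acid enzyme), Ass1 (of the urea cycle), Acaca and Acly (of fatty acid synthesis) held one (8.51%), which is near the 6.59% of all protein-coding genes, and these genes had a median length of 24.3 kb.

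Of 72 genes of cytosolic ribosomal proteins, 14 held a member (19.4%, beside 6.59% of all protein-coding genes). These genes are short, with a median of 3.31 kb. Another shared peak lay in 21 of the 72 (29.2%, beside 43.4% of all protein-coding genes), and none held a lone CTCF peak. The Rad21 fragments of the members ran from 23 at Rpl26 to 64 at Rpl7a. The Rpl38 summit, 67 bp from its TSS, had 520 CTCF and 61 Rad21 fragments, and the Rps15 summit, 49 bp from its TSS, had 407 and 62. Most of the others on this list were at or under 43 Rad21 fragments, the upper quartile of all members, such as Rpl34 with 26 and Rpl22 with 28.

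Cohesin and imprinted genes held a few. Among 20 genes of cohesin, CTCF and loop extrusion, Stag3 (a meiotic cohesin subunit), Nipbl (the cohesin loader) and Smc3 (a cohesin subunit) did (15%, beside 6.59% of all protein-coding genes). These genes had a median length of 32.9 kb, and 55% held another shared peak. At Nipbl, 408 CTCF and 49 Rad21 fragments lay 994 bp from the TSS. Of 38 imprinted genes, Sgce, Peg10, Zim1, Peg3 and Meg3 did (13.2%, with a median length of 20.9 kb), where Sgce and Peg10 share 1 peak. The Meg3 member was in an exon of this noncoding RNA, 117 bp from a TSS, with a motif score of 23.1 bits, 177 CTCF and 49 Rad21 fragments. Among 360 Zfp genes 20 held a member (5.56%). No Hox gene of 41, no clustered protocadherin of 23 and no olfactory receptor of 1111 held one, while other shared peaks lay in 19, 2 and 13 of them. These genes are short, with medians of 4.11, 3.44 and 0.963 kb, and 6.59% of all protein-coding genes held a member.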

How the data were processed

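CTCF and Rad21 ChIP-seq libraries (4 and 3) of female mouse liver were mapped by the authors to mm9 with Bowtie2, keeping uniquely mapped reads, and peaks were called with MACS2, which was followed by removal of blacklisted regions and of peaks made only of identical reads. The 2 deposited lists were made from pooled libraries, and no column belonged to 1 library (0 unused). Per peak, the deposited values are fold enrichment (a ratio to local background), −log10 p and −log10 q, a score that was not used, and the summit. Read depth per library was not used here, and the fragments over each summit give the depth behind a value.

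Members and gene lists were chosen with earlier results of these data known. Peaks were named by fixed rules, namely the 10 members of highest CTCF fold, the 5 highest at promoters, in introns, between genes and in coding exons, the 5 best motifs, the 5 strongest members without a motif, the 3 peaks nearest each threshold, and members in listed genes. The members of highest Rad21 background were added. Sequences with an annotated UTR in or near the window, or on chromosome 18, were not printed. Fragments and background were solved from fold and p. Annotation was GENCODE vM1 without pseudogenes, on NCBIM37, the same build as mm9. Motif matrices were learned by expectation maximization from the 1000 strongest peaks of the odd-numbered or the even-numbered autosomes. Shares carry 95% Wilson intervals and differences Newcombe intervals. No test between groups was run. Python 3.11.15, numpy 2.4.6, scipy 1.17.1, pandas 2.3.3 and matplotlib 3.10.9 were used, and the overlap, fragment and motif steps were tested on simulated data. A planned share of repeat-masked summits was not run, since the genome used marks no repeats, and the word count was added after the data were seen, as were the Rad21 background classes, the comparison with Rad21 folds of 4.5 to 6, and the fold over the lowest background.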

Additional observations from a re-analysis of the deposited data

How the results depend on the processing

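No paired analysis was possible because each list pools the libraries of its antibody. Of 130 alternative values, 91 stayed within the counting interval (counts within 1.5 times) of the reported value, and the cause was not tested for the others. The number of members was 1164 with Rad21 fold under 4, 1078 with CTCF fold of at least 10, 637 with a Rad21 −log10 q of at least 10, and 822 with the Rad21 fold over the lowest background, an alternative chosen after seeing the data. In this order of the last 2 settings, the promoter share was 35.5% and 13.1%, the motif share 55.9% and 65.6%, the recurrent share 8.32% and 14.0%, and the median distance to a strong Rad21 peak 11822 and 29098 bp. With summits within 100 bp the promoter share was 18.6%, the motif share 63.9% and the median summit distance 27 bp. The promoter share was 18.3% within 500 bp and 32.6% within 2.5 kb. The motif share was 56.7% with CTCF fold of at least 7, 63.6% with at least 10, 78.4% at 5% of flanking windows and 65.2% within 50 bp, where the 1% threshold is lower. The recurrent share was 27.1% at 5 copies and 6.07% at 20. The distance to a strong Rad21 peak was 16218 bp with Rad21 fold under 4 and 10604 bp to a neighbor of fold at least 5.

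The promoter difference at a CTCF fold of 8 to 10 was -1.28 points with Rad21 fold under 5, -2.54 with a TSS within 2.5 kb (-6.01 to 1.04), 3.92 with the q requirement, thus reversed, and -14.8 over the lowest background. At 16 or more it was 8.31 with summits within 100 bp, 3.67 with cuts on q at the same percentiles (-0.743 to 9.09), 50.7 with the q requirement, and reversed to -4.40 over the lowest background. The motif difference at 8 to 10 was 1.24 with cuts on q (-3.74 to 6.22), 3.399 with the q requirement (-2.50 to 9.26), 12.3 over the lowest background and 0.755 at 5% of flanking windows (-2.59 to 3.93), and at 16 or more it was -10.4 over the lowest background. The recurrent difference at 8 to 10 was 2.30 with the q requirement, 9.38 over the lowest background and 12.02 at 5 copies.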
